A study of Mus musculus with 2 samples.

Results

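The genes described here are those that drive cell division and the meiotic divisions: cyclins and their kinases, Aurora and Polo-like kinases, spindle checkpoint genes, activators and inhibitors of the anaphase-promoting complex, and genes that hold or release sister chromatids. They were taken by symbol from a list of 40, and 39 of them were found among the 39232 genes of both libraries. Emi1 was not found under that symbol. All 39 had counts in both libraries.

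Male germ cells divide by mitosis as spermatogonia, copy their DNA once more, pair and recombine their chromosomes through a long meiotic prophase (leptotene, zygotene, pachytene), and then pass through 2 divisions in quick succession to give round spermatids, which no longer divide. Entry into a division needs cyclin B or cyclin A bound to the kinase CDK1, which the kinases WEE1 and PKMYT1 hold back and the CDC25 phosphatases release. The spindle checkpoint then holds the anaphase-promoting complex (APC/C) until chromosomes are attached, after which APC/C with CDC20 destroys securin and cyclin B. In the testis many of these genes are transcribed well before the division that uses them, and some have germ cell forms, such as cyclin A1 beside cyclin A2 and Aurora C beside Aurora B.

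The study fed male C57 BL/6 mice, 5 weeks old at the start, with 1 week of adaptation and then 12 weeks on either a maintenance feed or a high-fat diet (60% of the calories from fat), 10 mice on each. Single-cell RNA sequencing of digested testis tissue gave 2 libraries, 1 per group. The label of one names the high-fat diet; the label of the other names the tissue only and is called library N here. The labels do not say how many mice went into a library, so differences between the libraries compare these 2 libraries and not the diets, and no test was possible.

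Values are counts of unique molecular identifiers (UMIs, each standing for 1 captured RNA molecule), summed over the cells of a stage and divided by all UMIs of that stage and multiplied by 1000000 (CPM). Intervals in parentheses are 95% intervals and cover counting error only. Cells fell into 7 germ cell stages named by transcripts, and each name stands for cells like that type. In library N these were 722 spermatogonia, 217 leptotene and zygotene cells, 1397 and 2782 pachytene-like cells, 4541 round, 967 late round and 143 elongating spermatids. The high-fat library had 887, 417, 871, 2510, 2215, 1604 and 219. The pachytene-like cells were split by Piwil1, a pachytene gene, at 413 and 439 CPM in the Piwil1-rich cells and 49.5 and 64.0 CPM in the Piwil1-low cells of library N and the high-fat library. The division genes were left out of the clustering. The labels call the cells germ cells, but Sertoli cells made up 5.86% and 10.6% of the cells kept, and 10.1% and 13.3% stayed unnamed. Dmc1, of meiotic recombination, was at 270.4 and 219.6 CPM in leptotene and zygotene cells and Prm1, a protamine gene, at 64889 and 64731 CPM in elongating spermatids.

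Several features of the libraries bear on the levels below. All 11 clusters of pachytene-like, round and late round cells held cells of 1 library for at least 96.8%, so stage differences between the libraries and differences between cluster sets cannot be told apart. Pachytene-like and round cells were deep (median 15096 to 22919 UMIs), whereas spermatogonia, leptotene and zygotene cells and Sertoli cells were shallow (medians of 1352 to 2400 UMIs). Free RNA, estimated from spermatid transcripts in other cells, made up 31.2% and 49.8% of UMIs in spermatogonia and 29.8% and 42.0% in leptotene and zygotene cells, but 8.49% to 15.3% in pachytene-like cells. Spermatids express those transcripts themselves, so their free RNA could not be estimated this way and was set to the UMIs found per pachytene-like cell. Sertoli cells, somatic cells with an estimated 52.2% and 90.5% free RNA, serve as the background for levels in the shallow stages. The estimator can overshoot, since it gave 108% for the 76 Leydig cells of the high-fat library, where no share can pass 100%. Elongating spermatids also carried Sertoli markers, summing to 2839 and 3583 CPM against 10261 and 18921 CPM in Sertoli cells. Of the barcode names, 1507 occurred in both libraries, where the names are numbers given by the counting software and not the cells' sequences.

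Most of the division genes had their highest level before the spermatid stages. In both libraries 8 peaked in spermatogonia (among them Ccna2, Plk4 and Espl1), 6 in leptotene and zygotene cells (Ccnb3, Cdk2, Wee1, Bub1, Mki67 and Top2a), 7 in Piwil1-rich pachytene-like cells (Cks2, Spdya, Pkmyt1, Cdca8, Bub3, Fbxo43 and Meikin) and 13 in Piwil1-low cells (Ccna1, Ccnb1, Ccnb2, Cdk1, Aurka, Aurkb, Aurkc, Birc5, Plk1, Mad2l1bp, Cdc20, Fzr1 and Pttg1). None peaked in a spermatid stage in either library, beside 4.81% of all genes in round, 13.3% in late round and 5.02% in elongating spermatids of both libraries. The peak stage was the same in both libraries for 34 of 39, or 87.2%, beside 72.6% of all 19141 genes with enough counts. The 13 in Piwil1-low cells were 33.3% of the division genes, beside 7.28% of all genes, and the 7 in Piwil1-rich cells were 17.9% beside 8.39%. The shares in spermatogonia (20.5% beside 17.9%) and in leptotene and zygotene cells (15.4% beside 15.9%) were near those of all genes. The 5 that peaked at different stages in the 2 libraries were Cdc25a, Mad2l1, Ttk, Sgo1 and Sgo2a. For none of these 5 was the highest stage clear of the next beyond counting error in both libraries.

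**Figure D1:**
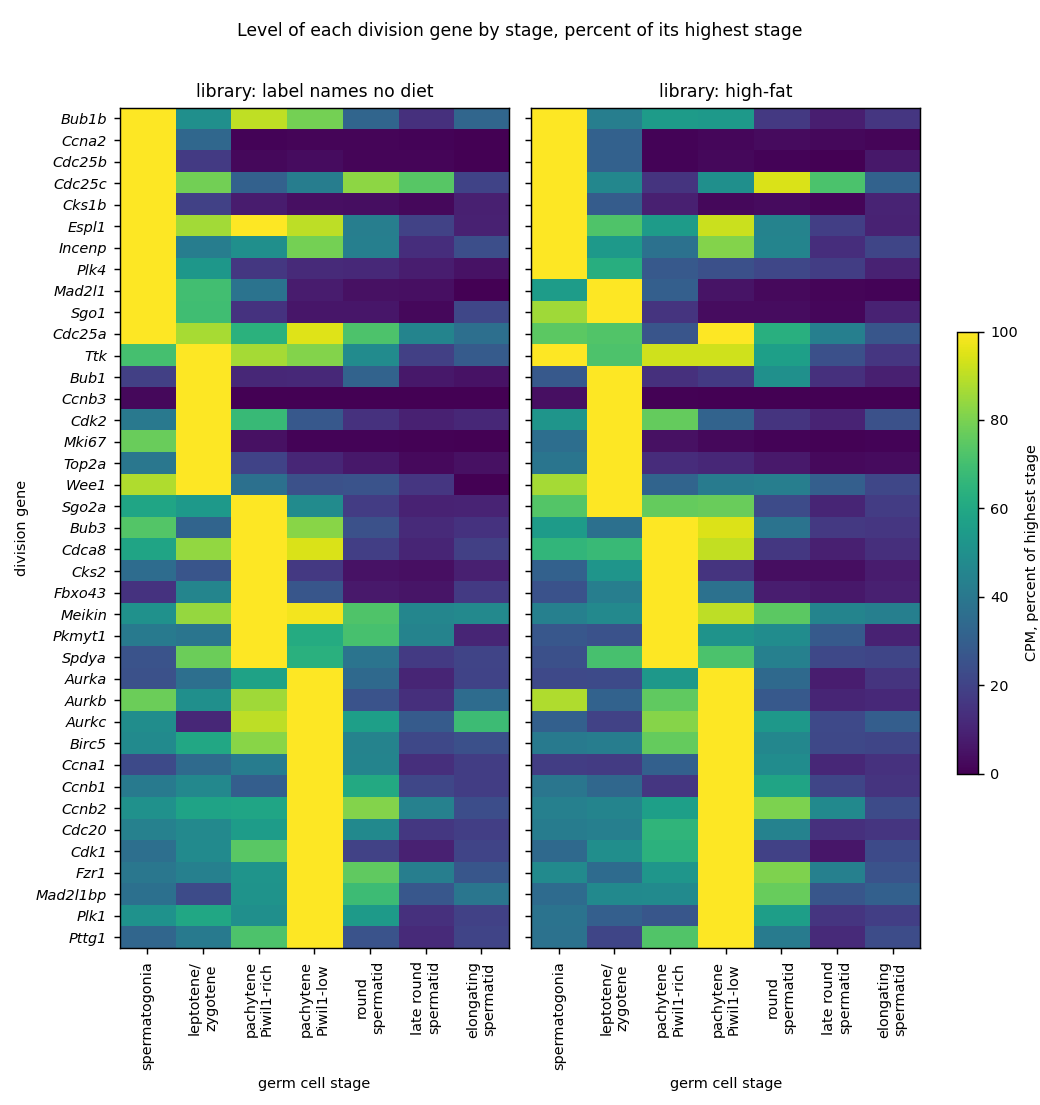
Levels of the 39 division genes (rows) at 7 germ cell stages (columns) in library N (left) and the high-fat library (right); the colour is the CPM as a percent of that gene's highest stage in that library. Rows are ordered by the peak stage in library N, and 34 of the 39 have their brightest cell in the same column of both panels.

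The peak was clear of the next stage beyond counting error in both libraries for 25 of the 39, in 1 library for 9, and in neither for 5. Those 5 were Cdc25c, Wee1, Ttk, Espl1 and Sgo1, whose peak stage is therefore not settled by the counts. Among all 19141 genes the shares were 41.3%, 29.4% and 29.4%. Levels in the shallow stages need the Sertoli background beside them. Of 39 genes, 17 were above their Sertoli level beyond counting error in both libraries in spermatogonia (beside 22.5% of all genes), 14 in leptotene and zygotene cells (beside 18.4%), 18 in Piwil1-rich cells (beside 16.1%) and 18 in Piwil1-low cells (beside 11.8%). In spermatids these were 6 in round (beside 12.7%), 1 in late round (beside 18.3%) and 0 in elongating (beside 6.35%). In each run of 7 levels below, the order is spermatogonia, leptotene and zygotene, Piwil1-rich, Piwil1-low, round, late round and elongating.

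Among the cyclins, the germ cell form Ccna1 was at 104, 158, 193, 460.0, 208, 62.0 and 83.9 CPM in library N. In the high-fat library it was at 97.7, 92.9, 163, 535, 261, 59.3 and 75.5 CPM. The runs of both libraries were highest in Piwil1-low cells, at 460.0 CPM (454 to 466) and 535 CPM (529 to 541). From Piwil1-rich to Piwil1-low cells Ccna1 was 2.38 (2.32 to 2.45) times as high in library N and 3.27 (3.17 to 3.38) times in the high-fat library. Its levels in spermatogonia were not above those in Sertoli cells (205 and 107 CPM). After each cell was thinned to 2000 UMIs, a Ccna1 UMI was seen in 60.7% (58.8% to 62.5%) of Piwil1-low cells in library N and 63.7% (61.8% to 65.6%) in the high-fat library, beside 28.1% and 14.4% of Sertoli cells. The Piwil1-low cells deep enough for this had medians of 15923 and 19652 UMIs before thinning, and the 153 and 347 such Sertoli cells had 3107 and 2889. Without thinning the Piwil1-low shares were 99.6% and 96.9%.

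Ccna2, the cyclin A of dividing body cells, had nearly the reverse pattern. It was at 45.0 and 45.2 CPM in spermatogonia and at 15.1 and 14.1 CPM in leptotene and zygotene cells. In the 5 later stages it lay between 0 and 1.31 CPM in both libraries. Sertoli cells had 0 counts in library N, with an upper interval bound of 2.05 CPM, and 4 in the high-fat library.

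Ccnb1, a main partner of CDK1 at division, was at 120.0, 136, 87.1, 292, 177, 62.7 and 52.9 CPM in library N. The high-fat library had 148, 125, 59.9, 375, 219, 78.3 and 56.7 CPM. Its lowest level among the deep pachytene-like cells, in the Piwil1-rich group, was followed by the highest, so Ccnb1 was 3.35 (3.22 to 3.49) and 6.25 (5.95 to 6.58) times as high in Piwil1-low cells. Ccnb2 peaked in the same cells at 360.4 CPM (355 to 365) and 358 CPM (354 to 363) and was still at 293 and 288 CPM in round spermatids. GENCODE M21 names pseudogene copies of both B cyclins, so reads shared with a copy make these levels uncertain. The same annotation has other genes overlapping Ccna1, Spdya, Plk1 and Wee1, and the strand setting of the counting is not given in the sources used here, so their reads may include those of the overlapping gene.

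Ccnb3, a cyclin of early meiotic prophase, was nearly confined to 1 of the 7 stages. It was at 71.7 CPM (54.3 to 92.9) and 91.5 CPM (76.4 to 109) in leptotene and zygotene cells. Spermatogonia, the next highest, had 1.48 and 3.92 CPM, so the level was 48.5 (18.0 to 184) and 23.3 (13.2 to 45.0) times as high. All 5 later stages lay between 0 and 0.367 CPM. A Ccnb3 UMI was seen in 13.2% (7.75% to 20.6%) and 15.9% (11.7% to 20.8%) of leptotene and zygotene cells thinned to 2000 UMIs, beside 0 of 153 (interval up to 2.38%) and 0.288% (0.00730% to 1.60%) of Sertoli cells. The cells deep enough for this had medians of 3192 and 3359 UMIs in the leptotene and zygotene group and 3107 and 2889 in the Sertoli group.

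Because 13 of the genes had their highest level in the same cells, the 250 bases before the transcription start were read for the 31 division genes that have a window in RefSeq's promoter table (build GRCm38.p6). Motifs were searched on both strands: the cell cycle homology region in the forms TTTGAA and TTCGAA, the CCAAT box, the MYB core CNGTTG and the cyclic AMP response element TGACGTCA, and matches of different motifs did not overlap in the windows shown. A match is a description of letters and not a bound site. The CCAAT box was in 23 of 31 windows, beside 33.8% of all 32851 windows of the same length. TTTGAA was in 8 of 31 beside 16.0%, TTCGAA in 2 beside 1.34%, CNGTTG in 12 beside 29.3%, and TGACGTCA in 0 beside 1.55%. Of the 12 genes with a window that peaked in Piwil1-low cells, 8 held a CCAAT box and 3 (Cdc20, Ccnb2 and Cdk1) held TTTGAA. The other 4 of the 12 (Aurkc, Birc5, Mad2l1bp and Pttg1) held none of the motifs. Windows, chosen after the matches were seen, are shown 5′ to 3′. They are those of the 4 genes of the Piwil1-low group that held CNGTTG (Ccna1, Cdk1, Cdc20 and Aurka) and of Pttg1 of the same group. Those of Top2a, which peaked in leptotene and zygotene cells, and of Aurkc are shown as well. Aurkc was past 2-fold between the libraries at all 7 stages before free RNA was subtracted. Capitals mark every motif match on either strand, and the Pttg1 and Aurkc windows have none. The windows lie at chr3:55055056-55055305 (- strand) for Ccna1, chr10:69352913-69353162 (- strand) for Cdk1, chr4:118437344-118437593 (- strand) for Cdc20, chr2:172370571-172370820 (- strand) for Aurka, chr11:43425982-43426231 (- strand) for Pttg1, chr11:99024190-99024439 (- strand) for Top2a and chr7:6995135-6995384 (+ strand) for Aurkc, each directly upstream of its gene.
Ccna1: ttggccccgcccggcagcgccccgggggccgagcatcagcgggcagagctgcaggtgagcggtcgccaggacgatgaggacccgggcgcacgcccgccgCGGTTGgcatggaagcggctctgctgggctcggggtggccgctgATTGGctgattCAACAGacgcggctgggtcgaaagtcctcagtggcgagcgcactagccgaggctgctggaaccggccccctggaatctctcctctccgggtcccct
Cdk1: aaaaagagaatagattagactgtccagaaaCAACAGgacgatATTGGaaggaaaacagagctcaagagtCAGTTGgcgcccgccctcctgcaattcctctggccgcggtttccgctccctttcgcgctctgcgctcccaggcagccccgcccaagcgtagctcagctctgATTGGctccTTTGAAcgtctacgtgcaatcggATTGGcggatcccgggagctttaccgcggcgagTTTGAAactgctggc
Cdc20: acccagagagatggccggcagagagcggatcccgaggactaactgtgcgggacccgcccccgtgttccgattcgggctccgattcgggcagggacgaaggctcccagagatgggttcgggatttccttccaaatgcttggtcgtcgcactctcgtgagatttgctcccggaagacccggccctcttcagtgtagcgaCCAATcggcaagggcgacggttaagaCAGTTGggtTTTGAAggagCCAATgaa
Aurka: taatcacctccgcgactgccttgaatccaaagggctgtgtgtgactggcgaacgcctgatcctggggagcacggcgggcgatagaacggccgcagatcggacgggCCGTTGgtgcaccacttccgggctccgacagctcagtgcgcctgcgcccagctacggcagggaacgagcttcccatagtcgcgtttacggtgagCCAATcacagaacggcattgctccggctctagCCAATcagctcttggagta
Pttg1: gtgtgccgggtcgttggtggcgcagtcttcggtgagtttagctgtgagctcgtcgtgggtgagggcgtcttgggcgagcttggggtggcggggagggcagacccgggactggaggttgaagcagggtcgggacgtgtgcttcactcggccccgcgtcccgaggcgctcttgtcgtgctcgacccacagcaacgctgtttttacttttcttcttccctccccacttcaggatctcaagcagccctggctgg
Top2a: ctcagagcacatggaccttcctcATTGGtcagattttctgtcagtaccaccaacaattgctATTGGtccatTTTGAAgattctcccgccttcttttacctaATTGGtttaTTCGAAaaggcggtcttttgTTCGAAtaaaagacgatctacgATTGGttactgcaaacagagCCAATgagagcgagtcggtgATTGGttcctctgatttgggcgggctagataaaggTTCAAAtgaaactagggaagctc
Aurkc: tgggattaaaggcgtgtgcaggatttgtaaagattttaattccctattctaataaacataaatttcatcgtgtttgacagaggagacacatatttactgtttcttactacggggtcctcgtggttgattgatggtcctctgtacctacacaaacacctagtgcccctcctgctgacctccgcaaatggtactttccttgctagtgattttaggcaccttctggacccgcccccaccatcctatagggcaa

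Of the cyclin-dependent kinases and their partners, Cks2, a small subunit that binds the kinases, marked the earlier pachytene-like cells. Library N had 139, 103, 391, 64.7, 19.0, 16.0 and 34.9 CPM. The high-fat library had 137, 230.1, 441, 67.0, 16.4, 16.3 and 33.6 CPM. Piwil1-low cells held 0.165 (0.159 to 0.172) and 0.152 (0.147 to 0.158) of the Piwil1-rich level. In thinned cells a Cks2 UMI was seen in 51.5% (48.8% to 54.2%) and 59.1% (55.7% to 62.4%) of Piwil1-rich cells and 9.74% and 11.8% of Piwil1-low cells, beside 20.9% and 16.7% of Sertoli cells. The Piwil1-low share was thus below the share of Sertoli cells, while the Piwil1-rich share was above it. Free RNA was estimated at 52.2% and 90.5% of UMIs in Sertoli cells and at 12.3% and 15.3% in Piwil1-low cells. A share below that of Sertoli cells thus does not show that Piwil1-low cells lacked Cks2 RNA of their own.

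Spdya, an activator that binds CDK2 without being a cyclin, was at 66.8, 204, 263, 168, 101, 45.2 and 54.2 CPM in library N. It was at 67.3, 196, 276, 198, 119.9, 59.5 and 57.8 CPM in the high-fat library, so in both it was highest in Piwil1-rich cells and next highest in the stages beside them. Cdk2 itself peaked one stage earlier, at 46.5 CPM (32.8 to 64.1) and 47.9 CPM (37.2 to 60.7) in leptotene and zygotene cells. Cdk1, the division kinase, peaked one stage later, at 184 CPM (180.2 to 187) and 161 CPM (158 to 164) in Piwil1-low cells. In round spermatids Cdk1 was at 0.199 (0.191 to 0.207) and 0.192 (0.183 to 0.203) of that level. Cks1b, the paralog of Cks2, was instead a spermatogonial transcript at 72.0 and 89.9 CPM, against 15.0 and 34.1 CPM in Sertoli cells, and at most 7.95 CPM in either library from Piwil1-rich cells to late round spermatids. Mouse carries a retrocopy, Cks1brt, that can share reads with Cks1b.

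The CDC25 phosphatases, which release CDK1, were apart from one another. Cdc25a was at 98.6, 85.5, 63.1, 93.7, 70.9, 44.3 and 36.1 CPM in library N. In the high-fat library it was at 91.1, 88.7, 32.2, 122, 77.2, 52.6 and 32.5 CPM. It dipped in Piwil1-rich cells of both libraries, and its peak differed: spermatogonia and Piwil1-low cells were within counting error of each other in library N, with a ratio of 1.05 (0.927 to 1.19), and the Piwil1-low level was 1.34 (1.19 to 1.51) times the spermatogonial one in the high-fat library. At no stage was Cdc25a above its Sertoli level beyond counting error in both libraries. Cdc25b had few counts and peaked in spermatogonia at 7.38 and 9.05 CPM.

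Cdc25c departed from most of the list in that its level in round spermatids was above that in either pachytene-like group. It was at 5.96, 8.16 and 15.9 CPM in Piwil1-rich, Piwil1-low and round cells of library N. The high-fat library had 4.77, 15.9 and 30.2 CPM. Round spermatids were 1.95 (1.75 to 2.18) and 1.90 (1.75 to 2.06) times the Piwil1-low level. Spermatogonia, at 19.2 and 32.0 CPM, did not differ from round spermatids beyond counting error.

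The inhibitory kinases differed as well. Pkmyt1, which acts on CDK1 at membranes, was at 30.3, 28.9, 74.1, 45.6, 52.6, 33.3 and 7.75 CPM in library N. The high-fat library showed 25.0, 23.2, 92.4, 47.5, 44.9, 26.1 and 8.85 CPM. Both were highest in Piwil1-rich cells, at 1.41 (1.34 to 1.48) and 1.95 (1.85 to 2.06) times the next stage. Wee1, the nuclear counterpart, was highest in the 2 earliest stages, at 37.7 and 35.9 CPM in leptotene and zygotene cells and 33.2 and 31.1 CPM in spermatogonia, which did not differ beyond counting error.

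Aurora kinases and the chromosomal passenger complex act at spindle poles (Aurora A) and at centromeres (Aurora B or C with INCENP, survivin and borealin). Aurka was at 144, 214, 336, 583, 199.9, 59.9 and 116 CPM in library N. It was at 127, 129, 311, 581, 198, 47.1 and 87.9 CPM in the high-fat library. The Piwil1-low level was 1.73 (1.69 to 1.77) and 1.87 (1.83 to 1.91) times that of the next stage, and between the libraries it stood at a ratio of 0.996 (0.981 to 1.01). Birc5, which encodes survivin, had 169, 213, 292, 355, 159, 76.9 and 86.5 CPM in library N. Its levels in the high-fat library were 129.7, 134, 242, 318, 147, 68.5 and 66.7 CPM, again highest in Piwil1-low cells. Cdca8, for borealin, was nearly level over the pachytene-like cells (233 and 220.2 CPM in library N, 209 and 191 in the high-fat library). Incenp was highest in spermatogonia (91.6 and 93.8 CPM) and second in Piwil1-low cells (72.3 and 76.3 CPM). Aurkb lay at 32.8 and 35.6 CPM in Piwil1-low cells and at 25.5 and 31.4 CPM in spermatogonia. With free RNA subtracted its peak stage differed between the libraries, which left 33 of the 39 genes with the same peak and 12 in Piwil1-low cells.

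Aurkc, the germ cell Aurora kinase, was highest in Piwil1-low cells in both libraries, at different levels. Library N had 5.54, 1.26, 10.2, 11.3, 6.39, 3.26 and 7.75 CPM. The high-fat library had 20.5, 13.4, 55.1, 67.1, 35.7, 14.9 and 20.1 CPM. The high-fat level was higher at every stage, and the counting intervals of the 2 libraries did not overlap in either pachytene-like group or in round and late round spermatids. The ratio of the high-fat library to library N was 5.40 (4.78 to 6.13) in Piwil1-rich cells, 5.94 (5.46 to 6.47) in Piwil1-low cells, 5.59 (5.07 to 6.17) in round and 4.56 (3.48 to 6.07) in late round spermatids. In spermatogonia it was 3.70 (2.1 to 6.98), in leptotene and zygotene cells 10.6 (1.69 to 442), from 1 count in library N, and in elongating spermatids 2.59 (1.08 to 7.55). Sertoli cells showed 2.95 (1.56 to 6.06), and subtracting free RNA left Aurkc at 0 in the high-fat spermatogonia, leptotene and zygotene cells and elongating spermatids. Leptotene and zygotene cells of library N were then at 0 as well. With that subtraction it was still higher in the other 4 stages, for example 71.5 against 11.8 CPM in Piwil1-low cells. In thinned Piwil1-low cells an Aurkc UMI was seen in 2.06% (1.56% to 2.66%) in library N and 10.9% (9.66% to 12.1%) in the high-fat library, beside 0.654% and 4.61% of Sertoli cells; without thinning the shares were 19.1% and 66.7%. Among all 19585 genes tested in Piwil1-low cells, 515 (2.63%) had a ratio at least as high. Of all 39232 genes, tested or not, 600 (1.53%) were higher past 2-fold in both pachytene-like groups and in round and late round spermatids. In library N Aurkc was not above its Sertoli level beyond counting error at any stage (a ratio of 1.70, 0.964 to 3.30, in Piwil1-low cells), and its Piwil1-low level was not clear of the Piwil1-rich one, at 1.11 (0.966 to 1.28) times. No annotated gene overlaps Aurkc in GENCODE M21.

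**Figure D2:**
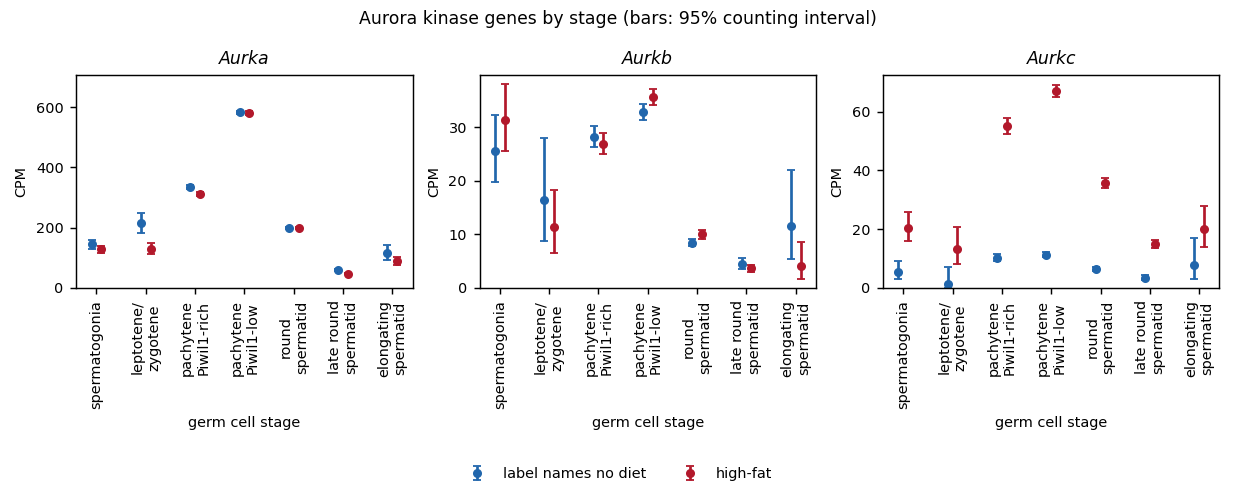
CPM (vertical axes, linear, each panel with its own scale) of Aurka, Aurkb and Aurkc at 7 germ cell stages; points are the 2 libraries, blue for library N and red for the high-fat library, and bars are 95% counting intervals. The libraries lie together for Aurka in Piwil1-low cells (583 and 581 CPM) and apart for Aurkc (11.3 and 67.1 CPM).

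The Polo-like kinases split by stage. Plk1, which acts through mitosis and both meiotic divisions, had 115, 135, 112, 225, 122, 31.2 and 43.9 CPM in library N. It had 89.6, 71.1, 63.1, 235, 132, 35.8 and 43.7 CPM in the high-fat library, with Piwil1-low cells 2.01 (1.94 to 2.09) and 3.72 (3.54 to 3.91) times the Piwil1-rich cells. Plk4, which starts centriole duplication, was highest in spermatogonia instead. Its levels were 398, 210.0, 63.9, 46.7, 46.6, 32.3 and 19.4 CPM in library N and 189, 118, 52.4, 45.7, 40.3, 34.5 and 17.7 CPM in the high-fat library. The spermatogonial level in the high-fat library was 0.474 (0.429 to 0.523) of that in library N. Free RNA was estimated at 31.2% of spermatogonial UMIs in library N and 49.8% in the high-fat library. How far the Plk4 ratio reflects these unequal shares was not tested.

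In the spindle checkpoint list, Bub1, a kinase of the kinetochore, had separate high points before and after pachytene. Library N had 42.1, 220.1, 24.4, 25.3, 70.3, 14.6 and 10.3 CPM. The high-fat library had 41.9, 149, 20.7, 25.6, 75.0, 20.8 and 13.0 CPM. Leptotene and zygotene cells were 3.13 (2.68 to 3.64) and 1.99 (1.73 to 2.29) times the round spermatids, the second highest stage. Round spermatids were in turn 2.78 (2.62 to 2.95) and 2.93 (2.76 to 3.11) times the Piwil1-low cells. In thinned cells a Bub1 UMI was seen in 12.1% (11.2% to 13.1%) and 12.4% (11.0% to 13.8%) of round spermatids and in 4.26% and 5.51% of Piwil1-low cells, the latter near the 5.88% and 5.76% of Sertoli cells.

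Bub3, which carries BUB1 and BUBR1 to kinetochores, was at 83.1, 36.5, 113, 93.2, 27.9, 13.4 and 16.8 CPM in library N. At 83.9, 56.3, 153, 145, 58.0, 25.6 and 24.2 CPM, the high-fat library had the higher level in both pachytene-like groups and in round and late round spermatids. Mad2l1, whose protein MAD2 inhibits CDC20, was low outside the early stages, at 34.3, 23.9, 13.0, 2.66, 1.52, 1.38 and 0 CPM in library N. The high-fat levels were 29.3, 52.8, 16.1, 2.87, 1.35, 0.685 and 0.590 CPM, so the highest stage was spermatogonia in one library and leptotene and zygotene cells in the other. In library N these 2 stages did not differ beyond counting error, at a ratio of 1.44 (0.871 to 2.49). The high-fat level was 2.21 (1.32 to 3.87) times that of library N in leptotene and zygotene cells and 0.496 (0.273 to 0.900) times in late round spermatids, where each library had 25 counts. Mad2l1bp, for the protein that removes MAD2 and silences the checkpoint, was highest in Piwil1-low cells at 32.9 and 32.6 CPM and next highest in round spermatids at 22.5 and 25.0 CPM. Bub1b peaked in spermatogonia at 50.6 and 52.5 CPM, which in library N was not clear of Piwil1-rich cells, at 1.10 (0.920 to 1.32) times. Ttk, the kinase that starts the checkpoint, was flat from spermatogonia to Piwil1-low cells, between 34.5 and 54.1 CPM over both libraries.

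The APC/C activators peaked in Piwil1-low cells. Cdc20, the activator for anaphase, was at 152, 162, 191, 346, 164, 56.4 and 64.5 CPM in library N. It was at 152, 157, 239, 364, 162, 50.1 and 56.1 CPM in the high-fat library. Fzr1, the activator used after anaphase and in G1, was at 89.7, 99.3, 117, 227, 172, 97.1 and 60.7 CPM in library N. The high-fat library had 92.9, 68.3, 102, 195, 157, 84.4 and 50.2 CPM, and in both the second highest stage was round spermatids, where Fzr1 was at 0.758 (0.740 to 0.776) and 0.808 (0.786 to 0.832) of the Piwil1-low level. The APC/C inhibitor Fbxo43, or EMI2, peaked one stage before the activators, at 30.5 CPM (28.6 to 32.6) and 26.3 CPM (24.4 to 28.3) in Piwil1-rich cells against 8.22 and 9.77 CPM in Piwil1-low cells. Fbxo5, the current symbol of the absent Emi1, stood in the wider list of division genes at 26.4 and 15.5 CPM in leptotene and zygotene cells and at most 0.477 CPM from Piwil1-rich cells on.

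Of the genes that hold or release chromatids, Pttg1, for securin, was at 152, 189.9, 333, 461, 119, 55.1 and 94.2 CPM in library N. The high-fat library had 148, 82.3, 286, 393, 163, 47.1 and 90.9 CPM, and in both the Piwil1-low cells were highest, at 1.38 (1.35 to 1.42) and 1.38 (1.34 to 1.41) times the next stage. Espl1, for separase, which securin holds back, was at 55.4, 47.8, 55.3, 49.8, 23.8, 11.0 and 5.16 CPM in library N. It was at 56.4, 40.8, 31.0, 51.8, 25.3, 10.4 and 5.31 CPM in the high-fat library, with the highest stage not clear of the second highest beyond counting error. Espl1 was lower in round spermatids (0.477 (0.450 to 0.506) and 0.488 (0.457 to 0.520) of the Piwil1-low level) and lower again in late round ones. The shugoshin gene Sgo1 was highest in the 2 early stages, between 12.6 and 18.3 CPM. Its paralog Sgo2a, which protects meiotic cohesin, was highest in Piwil1-rich cells of library N (51.6 CPM) and in leptotene and zygotene cells of the high-fat library (42.9 CPM). Meikin, a meiotic kinetochore regulator that works with shugoshin, was highest in Piwil1-rich cells at 35.8 and 47.9 CPM and at 35.1 and 43.2 CPM in Piwil1-low cells. These 2 groups did not differ beyond counting error in library N, at a ratio of 1.02 (0.945 to 1.10).

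The chromosome proteins used as proliferation markers were highest in leptotene and zygotene cells. Top2a, a topoisomerase, was at 232, 585, 117, 62.4, 38.8, 15.4 and 27.1 CPM in library N. It was at 212, 545, 70.3, 61.5, 37.0, 14.5 and 16.5 CPM in the high-fat library. The top stage was 2.53 (2.24 to 2.85) and 2.57 (2.32 to 2.85) times the spermatogonia. Mki67, for the coat protein of mitotic chromosomes, was at 63.9, 83.0, 3.66, 0.915, 0.740, 0.442 and 0 CPM in library N. The high-fat library had 46.5, 129, 5.90, 2.52, 1.29, 0.768 and 1.18 CPM, and in both it was below 6 CPM from Piwil1-rich cells on. In the cells where Cdk1 and Ccnb1 were highest, Mki67 was thus at 0.915 and 2.52 CPM.

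To see a finer order, pachytene-like to late round cells of each library were ordered by diffusion pseudotime, a distance from the first cells along the neighbour graph, and divided into 12 bins of equal cell number. In each library the order started from the Piwil1-rich cell with the highest Piwil1 share of UMIs, so a Piwil1-rich first bin follows from that choice. The first bin was 99.9% and 98.0% Piwil1-rich cells, and the last bin was 98.3% and 100% late round spermatids. Bins of the same number need not hold the same stage in the 2 libraries: the share of late round spermatids was 21.4% in bin 11 of library N and 99.0% in bin 11 of the high-fat library. Of the 37 division genes with enough counts, 17 had their highest bin at the same number in both libraries, beside 52.4% of all 18259 such genes, and 36 within 1 bin, beside 81.2%. The exception was Wee1, highest in bin 1 of library N and bin 8 of the high-fat library.

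The highest bins followed a like order in both libraries. Cks2, Spdya, Cdk2, Pkmyt1, Fbxo43 and Meikin were highest in bin 1 of both libraries. Aurkb was highest in bin 2 of both libraries and Cdk1 in bins 2 and 3, at 230.3 and 188 CPM. Birc5 followed in bin 3 and Incenp in bin 4 of both. Ccna1, Ccnb1, Plk1, Cdc20 and Fzr1 were highest in bin 4 of library N and bin 5 of the high-fat library, with Ccnb1 going from 38.8 and 52.6 CPM in the first bin to 324 and 436 CPM. Ccnb2 was highest 1 bin after Ccnb1 in each library. Mad2l1bp was highest in bin 6 of both libraries at 50.9 and 50.6 CPM, where round spermatids made up 70.5% of cells in library N and 35.8% in the high-fat library.

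Bub1 and Cdc25c came last and lay in bins made of round spermatids. Bub1 was highest in bin 9 of library N at 91.2 CPM and in bin 8 of the high-fat library at 94.4 CPM. Cdc25c was highest in bin 10 at 21.2 CPM and bin 9 at 35.7 CPM. The summed level of all 39 genes was highest in bin 4 of both libraries, at 4911 and 4991 CPM, and lowest in the last bin, at 1007 and 897 CPM. Bin 3 was close to bin 4, at 4907 and 4956 CPM, as was bin 5 of the high-fat library at 4967 CPM.

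**Figure D3:**
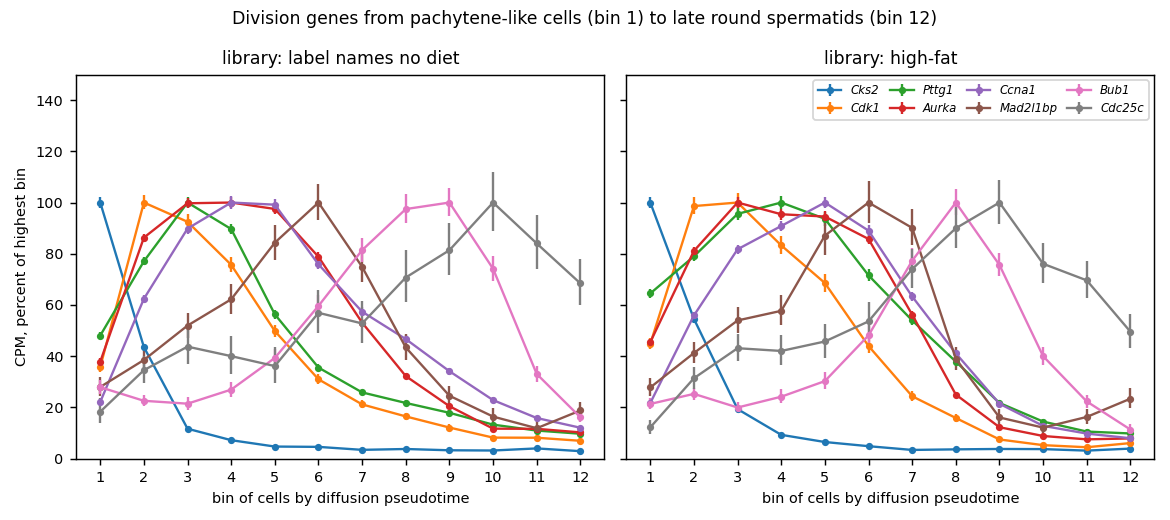
Levels of 8 division genes over 12 bins of cells ordered from pachytene-like cells (bin 1) to late round spermatids (bin 12), as CPM in percent of that gene's highest bin; left, library N, right, the high-fat library, with 95% counting intervals as bars. Cks2 is highest in bin 1 of both panels, Mad2l1bp in bin 6, and Bub1 and Cdc25c between bins 8 and 10.

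Steps between neighbouring stages were read as ratios past 2-fold in the same direction in both libraries, beside the share of all genes that did the same. From spermatogonia to leptotene and zygotene cells 4 of 38 division genes were higher (Ccnb3, Spdya, Bub1 and Top2a), beside 8.83% of all genes, and 4 were lower (Ccna2, Cks1b, Cdc25b and Bub1b), beside 13.5%. From there to Piwil1-rich cells 4 of 38 were higher (Pkmyt1, Aurkc, Bub3 and Fbxo43), beside 8.76%, and 10 were lower, beside 32.9%. Between the pachytene-like groups 3 of 37 were higher in Piwil1-low cells (Ccna1, Ccnb1 and Plk1), beside 3.31%, and 6 were lower (Cdk2, Cks2, Mad2l1, Fbxo43, Sgo1 and Mki67), beside 13.4%. As shares of the division genes tested, these were 10.5% and 10.5% at the first step, 10.5% and 26.3% at the second, and 8.11% and 16.2% between the pachytene-like groups.

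At the steps into and through the round spermatids more division genes were lower, and fewer higher, than their share among all genes. From Piwil1-low cells to round spermatids 14 of 37 division genes (37.8%) were lower past 2-fold in both libraries, beside 8.35% of all genes, and only Bub1 was higher, beside 23.8%. From round to late round spermatids 18 of 37 (48.6%) were lower, beside 11.2%, and 0 were higher, beside 17.2%. The 14 at the first step included Ccna1, Cdk1, Aurka, Cdc20 and Pttg1, whereas Ccnb1, Ccnb2, Plk1 and Fzr1 were within 2-fold there. Ccnb1 and Plk1 were among the 18 at the second step, with Bub1 and Mad2l1bp. From late round to elongating spermatids 3 of 34 were higher (Cdk1, Cks1b and Cks2), beside 8.62%, and 2 lower (Cdc25c and Pkmyt1), beside 21.1%. The elongating cells also carried the Sertoli markers given above. Their free RNA was set at 39.55% and 50.05% of UMIs, against 11.4% and 17.0% in late round spermatids. Subtracting it left 25 of 28 division genes at 0 in elongating cells of the high-fat library. Cdk1 and Cks2 were among them, and Cks1b was not. Cdk1 and Cks2 were then also at 0 in its late round spermatids. Whether these 3 genes rose beyond free RNA was not tested.

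Single cells showed the same course. In cells thinned to 2000 UMIs, the mean number of the 39 genes with a UMI was 4.99 and 4.77 in spermatogonia of library N and the high-fat library. It was 5.64 and 5.13 in leptotene and zygotene cells, 5.85 and 5.55 in Piwil1-rich cells and 6.91 and 7.20 in Piwil1-low cells. Round spermatids had 3.92 and 4.29, late round spermatids 1.89 and 2.03, and elongating spermatids 1.75 and 1.79. The SD over cells was 1.37 to 2.37 in these groups, and cells of 1 library are not replicates. Sertoli cells had 4.25 and 3.18, so round spermatids of library N and late round and elongating spermatids of both libraries lay below them. The spermatogonia lay above them in both. Free RNA was set at 11.4% to 17.0% in round and late round spermatids, far below the Sertoli shares. A level below Sertoli cells thus does not show that these spermatids lacked such RNA of their own. Cells under 2000 UMIs were left out, 302 and 374 of the spermatogonia, 626 and 943 of the Sertoli cells and 9 and 22 of the Piwil1-low cells.

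**Figure D4:**
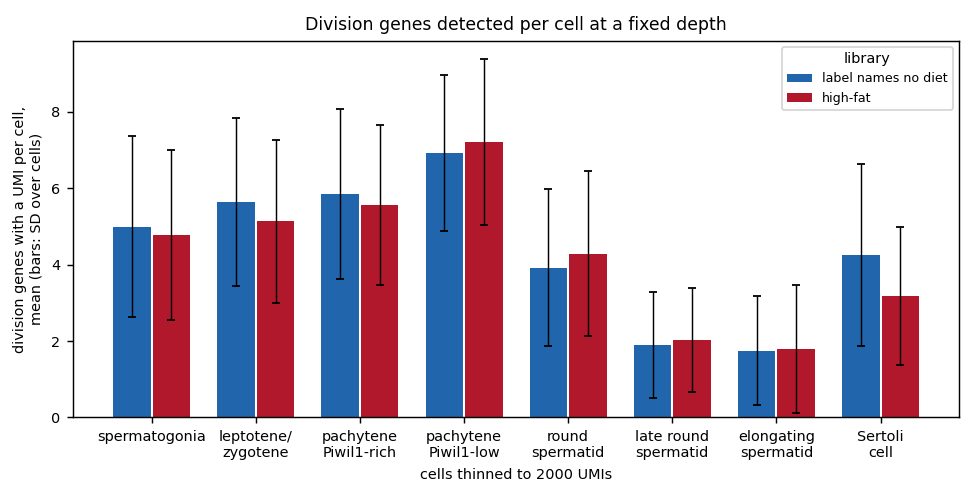
Mean number of the 39 division genes with at least 1 UMI per cell, after every cell was thinned to 2000 UMIs, at 7 germ cell stages and in Sertoli cells; bars are library N (blue) and the high-fat library (red), and error bars are the SD over cells. The Piwil1-low cells are highest at 6.91 and 7.20, and late round spermatids stand at 1.89 and 2.03.

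The wider set of 98 division genes, in lists of APC/C subunits, kinetochore and spindle genes, condensin, entry and exit regulators, cytokinesis genes and G1 genes, was also described by peak stage. Of the 95 with enough counts, 74 had the same peak stage in both libraries: 22 in spermatogonia (beside 17.9% of all genes), 33 in leptotene and zygotene cells (beside 15.9%), 5 in Piwil1-rich cells (beside 8.39%), 7 in Piwil1-low cells (beside 7.28%), 0 in round (beside 4.81%), 4 in late round (beside 13.3%) and 3 in elongating spermatids (beside 5.02%). For 2 of each list the levels are named. Ube2s, an APC/C-linked ubiquitin conjugating enzyme, was highest in Piwil1-low cells at 1852 and 2101 CPM, and the subunit gene Anapc11 in Piwil1-rich cells at 396 and 480.2 CPM. The kinetochore gene Spc25 was highest in Piwil1-low cells at 127 and 115 CPM, and Cenpf in leptotene and zygotene cells at 321 and 253 CPM. Of the microtubule genes, Ckap5 was highest in leptotene and zygotene cells (149.6 and 197 CPM) and Kif2c in elongating spermatids (185 and 244 CPM).

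In the condensin list Ncapg was highest in leptotene and zygotene cells (108 and 69.7 CPM), and Smc4 had its highest level in Piwil1-rich cells of library N (567 CPM) and in leptotene and zygotene cells of the high-fat library (521 CPM). Haspin, a histone kinase of dividing and germ cells, was highest in Piwil1-low cells (633 and 603 CPM) and stayed at 601 and 546 CPM in round spermatids. Arpp19, a phosphatase inhibitor of mitotic entry, was highest in spermatogonia (474 and 509 CPM). Tex14, of germ cell bridges, was highest in leptotene and zygotene cells (249 and 319.5 CPM) and the septin gene Sept12 in Piwil1-low cells (593 and 558 CPM). The CDK inhibitor genes Cdkn2d and Cdkn2c were both highest in Piwil1-rich cells, at 263 and 224 CPM and 197 and 177 CPM.

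Between the libraries most division genes lay within 2-fold at each stage. Counts are of genes with at least 20 UMIs in a stage over both libraries, set beside the share of all such genes past the same fold. In spermatogonia 1 of 38 was higher in the high-fat library (Aurkc), beside 9.17% of all genes, and 1 was lower (Plk4), beside 5.99%. In leptotene and zygotene cells 4 of 38 were higher (Cks2, Aurkc, Mad2l1 and Mad2l1bp), beside 9.89%, and 1 was lower (Pttg1), beside 4.28%. In Piwil1-rich cells 1 of 37 was higher (Aurkc), beside 11.3%, and 0 lower, beside 8.35%. In Piwil1-low cells 2 of 38 were higher (Aurkc and Mki67), beside 12.7%, and 0 lower, beside 7.08%. Round spermatids had 2 of 37 higher (Aurkc and Bub3), beside 9.41%, and 0 lower, beside 9.86%. Late round spermatids had 2 of 36 higher (Ccna2 and Aurkc), beside 11.7%, and 1 lower (Mad2l1), beside 9.67%. Elongating spermatids had 3 of 28 higher (Cdk2, Cdc25c and Aurkc), beside 9.38%, and 2 lower (Bub1b and Ttk), beside 5.54%. The shares were near or below those of all genes at each stage.

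The differences themselves rested on very different counts. In leptotene and zygotene cells Cks2 stood at 103 CPM in library N and 230.1 CPM in the high-fat library, a ratio of 2.23 (1.75 to 2.88). Pttg1 stood at 189.9 and 82.3 CPM there, a ratio of 0.434 (0.338 to 0.556). In these cells neither Cks2 nor Pttg1 was above its Sertoli level beyond counting error in both libraries. Subtracting free RNA left Pttg1 at 0 in the leptotene and zygotene cells of the high-fat library. The ratio of Mad2l1bp, 2.05 (0.807 to 6.19), came from 6 and 22 counts, and its interval held 1. Bub3 in round spermatids, at 2.08 (1.97 to 2.19), rested on 2266 and 3105 counts. Mki67 in Piwil1-low cells, at 2.75 (1.99 to 3.86), was at low levels in both libraries, and Ccna2 in late round spermatids, at 2.55 (1.12 to 6.80), at 7 and 36 counts. In elongating spermatids the intervals of Cdk2, Cdc25c, Bub1b and Ttk all held 1.

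Median log2 ratios of the division genes (high-fat library over library N) were 0.0025 in spermatogonia, -0.11 in leptotene and zygotene cells, -0.16 in Piwil1-rich cells, 0.06 in Piwil1-low cells, 0.09 in round, 0.02 in late round and -0.06 in elongating spermatids. Those of all genes tested were 0.03, 0.09, 0.06, 0.13, 0.02, 0.08 and 0.02 in the same order. With free RNA subtracted, which uses a larger share in the high-fat library, 13 gene and stage pairs were higher and 50 lower past 2-fold, in place of 15 and 5. Those lower were then 10 of 38 in spermatogonia, beside 19.5% of all genes, 10 of 38 in leptotene and zygotene cells, beside 18.4%, 4 of 37 in Piwil1-rich cells, beside 14.3%, and 1 of 38 in Piwil1-low cells, beside 11.8%. In spermatids they were 3 of 37 in round, beside 15.4%, 14 of 36 in late round, beside 16.1%, and 8 of 28 in elongating, beside 30%. Those higher were 0, 4, 1, 2, 3, 2 and 1 over the 7 stages in the same order, beside 11.7%, 14.5%, 10.6%, 12.9%, 9.38%, 12.7% and 13.0%. Under this subtraction the share lower was thus above that of all genes in late round spermatids, spermatogonia and leptotene and zygotene cells, unlike the shares without it.

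**Figure D5:**
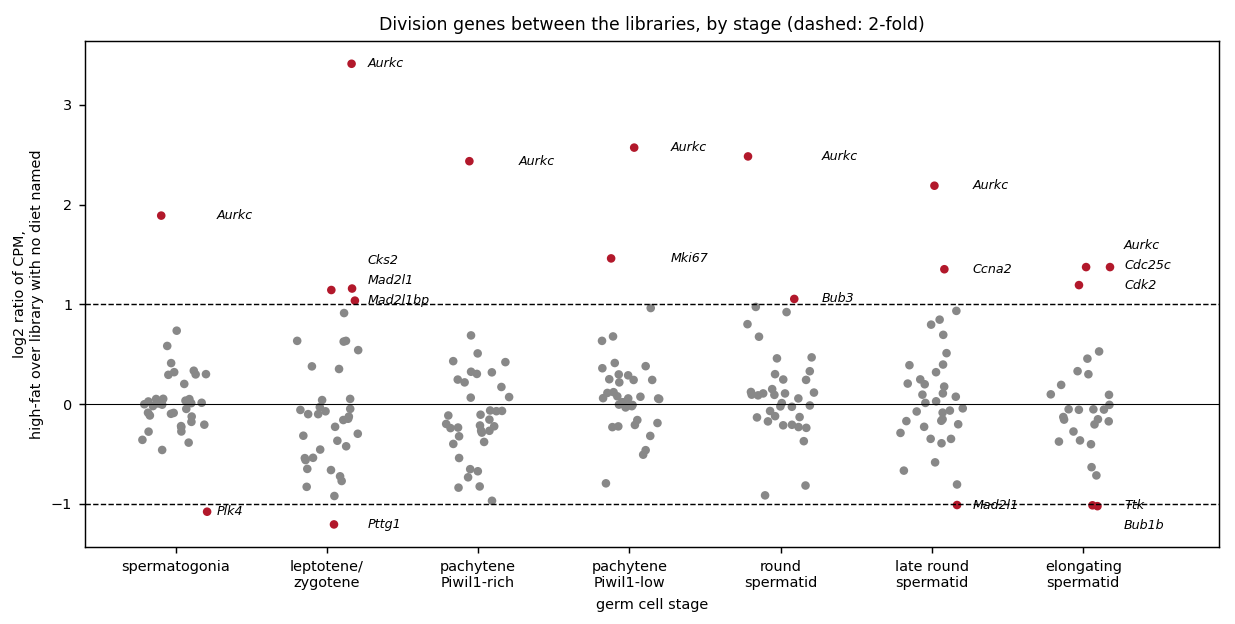
Log2 ratio of CPM, high-fat library over library N, for each division gene with at least 20 counts at each of 7 germ cell stages; dashed lines mark 2-fold, and genes past them are red and named. Without free RNA subtracted, Aurkc is past the line at all 7 stages, and most other genes lie between the lines.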

How the data were processed

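Droplet libraries (DNBelab C kit, per the labels' protocols) were deposited by the authors as filtered matrices of raw UMI counts per gene and cell, made with PISA 1.0 per the file headers and Cell Ranger 2.1.1 per the submitters' processing notes. Aligner and genome build: not given in the sources used here. In all, the 2 libraries held 13805 and 12661 barcodes, with 207667609 and 201842085 UMIs (medians 13024 and 9772 per cell).

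Cells with at least 500 UMIs, 250 genes and under 20% mitochondrial UMIs were kept, and Scrublet calls (3.75% and 3.65%) were removed. Both libraries were clustered together in scanpy 1.11.5 (2000 variable genes without division genes, 50 components, 20 neighbours, Leiden resolution 1), giving 22 clusters named from fixed markers. The naming rule, the Piwil1 split at 100 CPM, the merged round spermatids, the 12 bins, the stage steps and free RNA subtraction were set after clusters were seen. The members and lists were chosen with earlier results of these data known. UMIs were summed per library and stage. Poisson, conditional binomial and Clopper-Pearson 95% intervals were used, a peak needed 50 germ cell counts per library, and a ratio needed 20 counts (for steps, in each library). There were no tests, since each group had 1 library. Ratio intervals and 2-fold calls between the libraries (on Piwil1-low sums) and thinning were tried on simulated data. Clustering, stage naming, peaks, stage steps, bins and free RNA subtraction were not. Genes given at every stage were the 2 per role with the highest peak, and those past 2-fold at it.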

Additional observations from a re-analysis of the deposited data

Results flagged for a closer look

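Mad2l1, which encodes the checkpoint protein MAD2, differed between the libraries in opposite directions at 2 stages. The ratio of the high-fat library to library N was 2.21 (1.32 to 3.87) in leptotene and zygotene cells and 0.496 (0.273 to 0.900) in late round spermatids. The difference between the stages was not tested, since each group had 1 library. The late round ratio came from 25 counts in each library. With free RNA subtracted, Mad2l1 was at 32.2 and 87.6 CPM in leptotene and zygotene cells of library N and the high-fat library. It was at 1.01 and 0 CPM in late round spermatids. The shares subtracted were estimated in leptotene and zygotene cells (29.8% and 42.0%) and set from pachytene-like cells in late round spermatids (11.4% and 17.0%). The larger share in the high-fat library tends to lower its values, and values below 0 were set to 0. The subtraction therefore did not test the late round direction.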

How the results depend on the processing

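No paired analysis was possible because each group had 1 library and the labels carry no shared replicate numbers. Alternatives covered the clustering, stage naming, doublets, cell depth, weighting of cells, minimum counts, fold and thinning depth; free RNA subtraction and all alternatives for the stage steps were chosen after seeing the data. Of the values for whole lists, 84 stayed within the limits set, 17 moved and 2 changed sign. Of the other values, which include ratios of single genes, 124 stayed, 76 moved and 0 changed sign. Member and stage pairs past the fold, 15 higher and 5 lower in the high-fat library, were 24 and 10 with no count minimum, 7 and 2 with at least 100 counts, and 32 and 24 at 1.5-fold. The lower pairs were 9 with division genes kept in the clustering, 2 with doublets kept and 50 with free RNA subtracted. With stages from marker scores per cell, 1 division gene peaked in spermatids in both libraries in place of 0. The median log2 difference of the division genes in library N, Piwil1-low less Piwil1-rich, was 0.0510 over all 39 genes, but -0.03 over the 37 with at least 20 counts in each library, -0.0810 with marker scores and -0.0172 with every cell weighted equally. Division genes with a UMI per Piwil1-low cell were 3.97 and 4.07 at 1000 UMIs and 12.6 and 13.0 at 5000. Genes lower from Piwil1-low to round cells, 14, were 9 at resolution 2 and 23 at 1.5-fold; those lower from round to late round, 18, were 29 at 1.5-fold. The cause was not tested beyond the construction of each alternative. Depth limits genes with few counts and the shallow stages.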

Other observations

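The cells that stayed unnamed, 1347 in library N and 1625 in the high-fat library, had a summed level of the 39 division genes of 2192 and 2265 CPM, between those of round and late round spermatids in library N (2342 and 1024 CPM) and in the high-fat library (2541 and 1056 CPM). Their median depths were 1740 and 1643 UMIs.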
